A study of Mus musculus with 4 samples.

Results

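The nuclear genes of oxidative phosphorylation were examined in RNA sequencing libraries of mouse T-helper 2 (Th2) cells. Members were the protein-coding nuclear genes whose symbols start with Nduf, Uqcr, Atp5, Cox4i, Cox5, Cox6, Cox7 or Cox8, together with Sdha, Sdhb, Sdhc, Sdhd, Cyc1 and Cycs. This rule found 95 of the 50600 genes in the count tables, out of 21751 nuclear protein-coding genes. By symbol they were 38 genes of complex I, 8 complex I assembly factors (Ndufaf genes), 4 of complex II, 9 of complex III including Cyc1, cytochrome c (Cycs), 18 of complex IV and 17 of complex V. The complex was assigned from the symbol alone, so Ndufa4 and Ndufa4l2 were counted with complex I whatever complex their proteins join.

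The study deposited 4 libraries, numbered as biological replicates 1 to 4 of a single group with no control, treatment or other cell type. The cells were primary Th2 cells of strain C57BL/6NJ, with sex not collected and age unknown. The labels name the assay total RNA sequencing, the name of the library protocol speaks of poly(A)+ RNA, and a protocol for differentiating CD4+ T cells is named. The file headers carry 72 h for each library, and the sources used here do not say what this time counts from. Each library has its own biosample and all share a donor identifier, so the p-values reflect how far these samples spread, and part of that spread may be technical.

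Oxidative phosphorylation couples the oxidation of NADH and succinate to the synthesis of ATP at the inner mitochondrial membrane. Complexes I and II pass electrons to ubiquinone, complex III passes them to cytochrome c, complex IV reduces oxygen, and complex V, the ATP synthase, uses the proton gradient built by complexes I, III and IV. Most subunits are encoded in the nucleus, and T cells enlarge their mitochondrial mass when they are activated and divide.

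Replicates 1, 3 and 4 held 2388255, 1929880 and 1713199 gene counts, and 3 counts, taken as the detection floor, correspond there to 1.26 to 1.75 CPM (a gene's counts scaled to the same library total). Replicate 2 held 5016 counts, a floor of 598.1 CPM, and enters only where it is named and in alternative fits over all 4 libraries. Of the 9 Th2 and T cell markers checked, all had counts, 693, 260 and 514 in sum in replicates 1, 3 and 4. They include Il4, Il13, Gata3 and Cd4. The exons of Gata3, Cd3e and Il5 overlap a gene on the other strand. Il4 alone had 65, 80 and 59 counts and was highest in replicate 3. Of 13 markers of cytotoxic T, B, myeloid, erythroid, muscle and sperm cells 7 had no count, and the 13 together had 26, 21 and 30. Ms4a1, Itgam, both hemoglobin genes, Myh7 and Tnp1 were among those at 0. Most of the counts in the list were of Prm1, a sperm protamine gene (12, 12 and 14), and of Ckm, muscle creatine kinase (11, 9 and 11), whose exons overlap a gene on the other strand. Corrected for exonic length, Prm1 stood at 19.7 TPM, above Cd4 (13.8) and Gata3 (6.87) and below Il4 (39.95) and Il13 (65.7).

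Each value below is an own-strand count: fragments were counted for a gene only when read 1 lay on that gene's annotated strand, per the file headers. The sources used here do not say which strand read 1 represents in this library chemistry, and a fragment on the opposite strand entered the tables only if a gene is annotated on that strand. An own-strand count therefore need not come from that gene's RNA. For this reason members were split by whether any of their exons overlap, by at least 1 base, exons annotated on the opposite strand. Such exons were present in 25 members (26.3%) and in 22.0% of the other nuclear protein-coding genes.

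The 95 members had 4234, 2342 and 2803 own-strand counts in replicates 1, 3 and 4, or 0.154% ± 0.0292 of all counts (SD, n = 3). In replicate 2 they had 10. Complex V, the ATP synthase, took 55.9% of the member counts with 2348, 1376 and 1521. Among members without opposite-strand exons it took 35.3%, with 1032 counts over the 3 libraries, and complex I 28.2%, with 826. Complex I followed with 857, 457 and 499 counts, and complex IV with 446, 281 and 374. Complex III had 238, 71 and 178 counts, the Ndufaf genes 206, 125 and 142, complex II 102, 27 and 66, and Cycs 37, 5 and 23. In all 7 groups of genes replicate 3 had the lowest CPM. Wilson 95% intervals of the member share were 0.172 to 0.183% in replicate 1, 0.117 to 0.126% in replicate 3 and 0.158 to 0.170% in replicate 4, so all 3 libraries differed beyond counting error, with replicate 3 the lowest. These intervals and the floor cover counting error only, since without molecular identifiers the same molecule can be counted more than once.

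Both leading genes belong to the peripheral stalk of the ATP synthase, which holds the catalytic head still while the rotor turns. Atp5f1, which encodes its b subunit and lies on chromosome 3 at 105942698 to 105960099 (mm10), had 1166, 752 and 713 counts, 150 ± 18.4 TPM (a scaled level that corrects counts for exonic length; SD, n = 3). Atp5j, which encodes its coupling factor and lies on chromosome 16 at 84827866 to 84835625, had 574, 413 and 368 counts and 102 ± 7.10 TPM. These genes alone made up 42.5% of all member counts, and the exons of both overlap a gene on the other strand. Of the 10 members with the highest TPM, 6 have such exons.

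**Figure D1:**
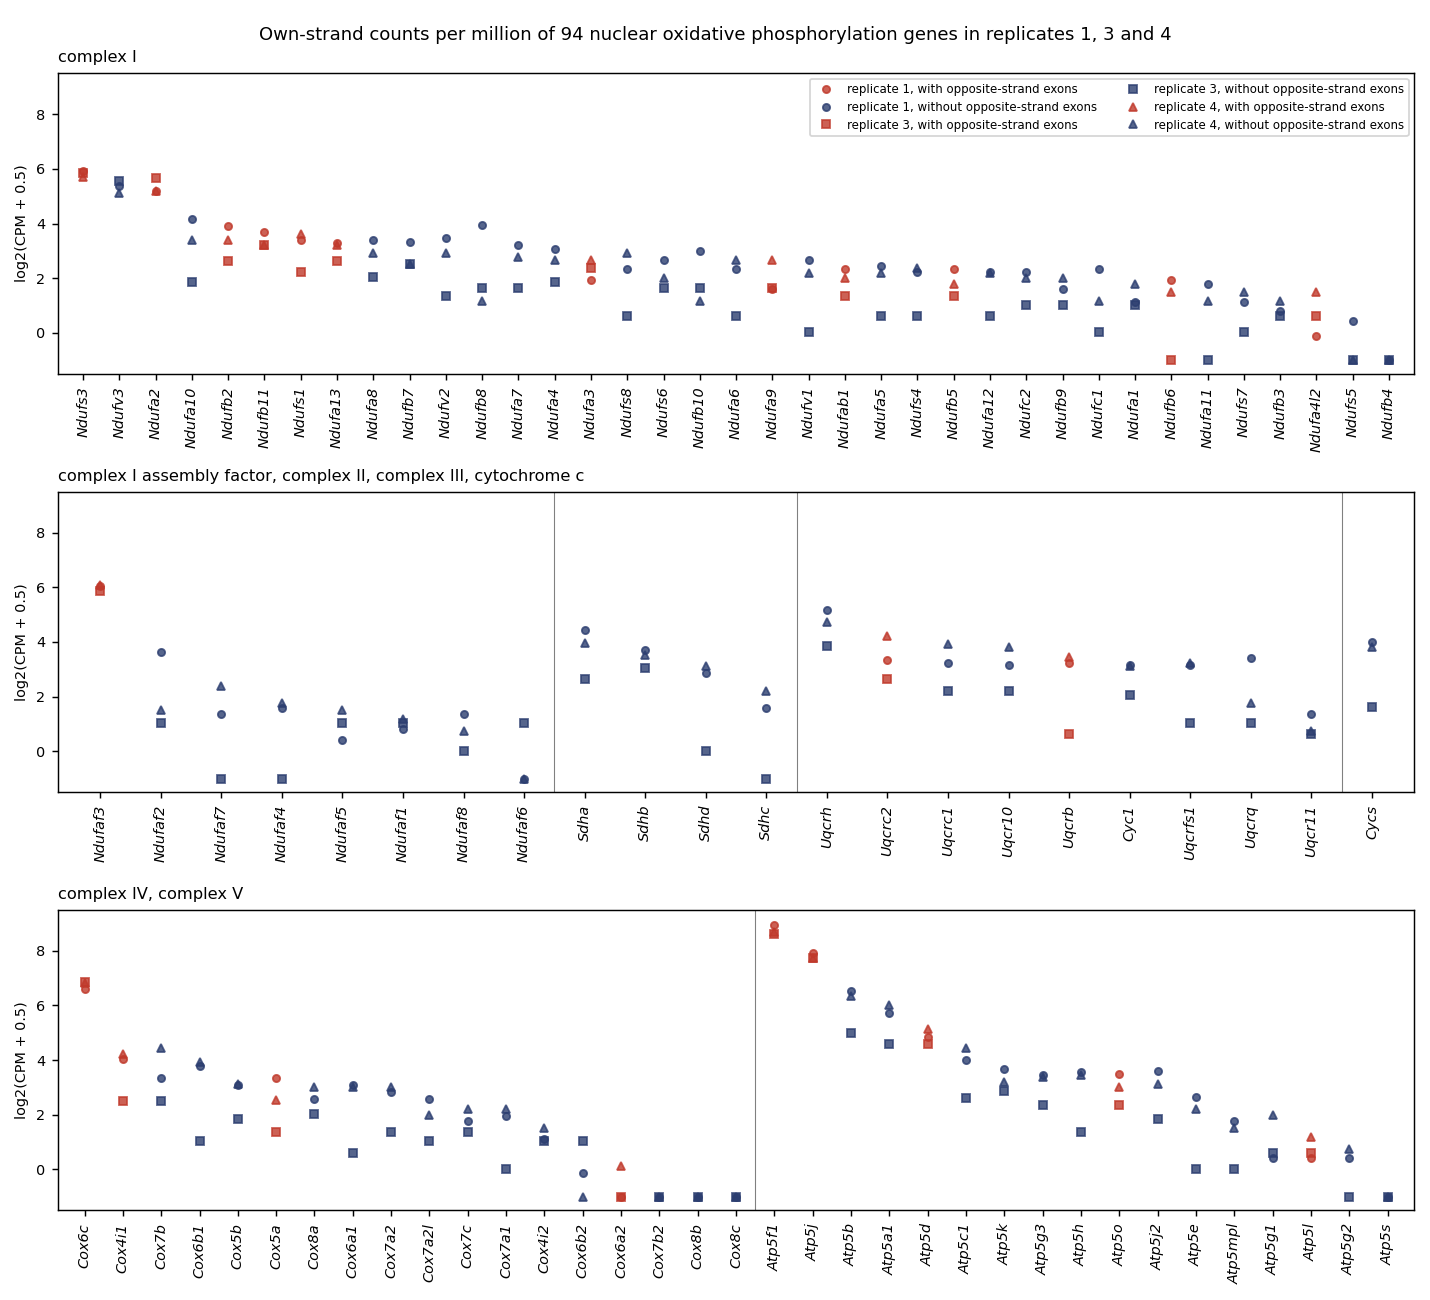
Own-strand level of 94 members as log2(CPM + 0.5) in replicates 1 (circles), 3 (squares) and 4 (triangles), ordered by complex and mean CPM, with members that have opposite-strand exons in red and the others in blue. Atp5f1 and Atp5j stand above the rest of complex V, and among the blue points the square of replicate 3 is most often the lowest.

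Levels were asked first. A level was set against 1 TPM with edgeR's quasi-likelihood test across all 10670 genes with 10 or more counts over the 3 libraries. Of the 95 members 77 passed this filter, 13 had 1 to 9 counts and 5 had none. With Benjamini-Hochberg adjustment at 0.05, 67 members lay above 1 TPM and 0 below, where 62.9% of all genes tested lay above and 2.97% below. At an unadjusted p under 0.05 the count below was also 0, and limma and DESeq2 put 0 members below. All of these use the same filter, which drops genes with few counts, and with them low levels, before the test. A count of 0 below therefore has little weight. Atp5l, at 0.268 TPM with 7 counts over the 3 libraries, was not tested. Without the filter 68 of 90 tested members lay above, as did 7040 of 17740 genes, and 1 member lay below. The count above fell to 44 of 54 tested without replicate 1. It depends on the scale: with the TPM denominator taken over genes without opposite-strand exons, all 77 lay above, as did 10666 of the 10670 genes. The median of the members' mean TPM was 4.70 against 0.168 in the other nuclear protein-coding genes, 6.46 in members with opposite-strand exons and 4.53 in those without.

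Complex I had 27 of 33 tested members above 1 TPM. Ndufa2, an accessory subunit, reached 102 ± 19.2 TPM with 87, 97 and 61 counts. Ndufs3, a core subunit of the peripheral arm, reached 36.6 ± 2.61 TPM with 143, 109 and 88 counts. Ndufv3, an accessory subunit of the NADH-oxidizing module that lacks opposite-strand exons, reached 23.4 ± 3.22 TPM with 99, 90 and 59 counts. In none of these was replicate 3 the lowest count. Other core subunits of the same arm had a lower mean TPM than Ndufs3, and their levels were not tested against each other. Ndufs8 stood at 6.29 ± 4.52 TPM (adjusted p = 0.0016, edgeR) and Ndufv2 at 4.69 ± 3.05 TPM (0.0014). Ndufs7, at 1.26 ± 0.778 TPM with 9 counts, was not tested. Ndufs1, the largest subunit, stood at 1.53 ± 0.715 TPM (adjusted p = 0.188, edgeR) and Ndufv1, which binds the flavin, at 1.99 ± 1.55 TPM (0.148), and neither was called. Ndufab1, the mitochondrial acyl carrier protein, Ndufb5, Ndufc1 and Ndufa11 were the other members not called, at 0.705 to 2.20 TPM. Ndufb4 had no count.

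Among the assembly factors of complex I, Ndufaf3 led at 50.2 ± 4.63 TPM with 157, 112 and 116 counts, and Ndufaf2 followed in the test at 10.96 ± 11.9 TPM. Ndufaf2 had 28, 3 and 4 counts, so its level rests on replicate 1. The other 6 Ndufaf genes stood at 0.591 to 2.16 TPM. Complex II, succinate dehydrogenase, had 3 of 4 members above 1 TPM. Sdhb, the iron-sulfur subunit, was at 6.69 ± 1.62 TPM, Sdhd, a membrane anchor, at 5.99 ± 4.76 TPM and Sdha, the flavoprotein, at 5.14 ± 2.85 TPM. Sdhc, the other anchor, was at 0.974 ± 0.915 TPM (edgeR adjusted p = 0.943).

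Every tested member of complex III (8 of 8) and complex IV (13 of 13), and Cycs, lay above 1 TPM. Uqcrh, the hinge protein that binds cytochrome c1, led complex III at 29.1 ± 12.4 TPM with 84, 27 and 45 counts. The core proteins Uqcrc2 and Uqcrc1 were at 6.26 ± 3.63 and 3.18 ± 1.85 TPM. In complex IV the accessory subunit Cox6c led at 43.3 TPM with 230, 221 and 195 counts. Cox4i1, a regulatory subunit, had 38, 10 and 31 counts, and Cox7b had 23, 10 and 36. Cycs, the mobile electron carrier, stood at 4.43 ± 2.93 TPM.

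In complex V 13 of 14 tested members lay above 1 TPM. The catalytic head subunits Atp5b (beta) and Atp5a1 (alpha), which occur in equal numbers in the enzyme, had 218, 61 and 137 and 124, 46 and 109 counts, or 22.9 ± 10.8 and 21.2 ± 9.55 TPM. These levels differed by less than their spread, and they lay far under Atp5f1 and Atp5j. The central stalk subunits Atp5d (delta) and Atp5c1 (gamma) were at 21.3 ± 4.22 and 10.6 ± 5.92 TPM. The rotor ring subunit is encoded by 3 genes with the same mature protein: Atp5g3 stood at 5.48 ± 2.15, Atp5g2 at 0.574 ± 0.518 and Atp5g1 at 0.524 ± 0.440 TPM. Atp5s had no count. Fragments that align to several places were not counted, as the file headers show no option for them, so members with near-identical copies elsewhere in the genome, among them processed pseudogenes, are uncertain.

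The genes on the other strand were then compared with the members. The 25 members with opposite-strand exons formed 29 pairs with 29 genes, of which 20 are protein-coding, and 4 members are in 2 pairs each. Exons overlapped by 4 to 616 bases with a median of 156. In 15 pairs the 5′ ends overlap, in 10 the 3′ ends, in 3 the partner starts and ends inside the member and in 1 the member lies inside the partner. The partners had 23338, 19986 and 16878 counts in replicates 1, 3 and 4 against 2748, 1872 and 1833 in their members, or 8.49, 10.7 and 9.21 times as many. By complex, partner counts were 9629, 8287 and 6702 for complex I, 6490, 5514 and 4820 for complex IV, 3690, 2878 and 2682 for complex V, and 3488, 3301 and 2644 for complex III. Complex II and Cycs have no such exons.

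Counts per exonic base were compared within pairs with edgeR's quasi-likelihood test over all pairs of genes with overlapping exons on opposite strands and 30 or more counts, with the library as a block. Of 28 tested member pairs, the member was lower in 19 (67.9%) and higher in 7 (25%), with 2 not called. Over all 4094 comparisons of a nuclear protein-coding gene with its partner, the gene was lower in 61.6% and higher in 29.2%. The members' split thus lay near that background. The partner was denser in all 3 libraries in each of the 19 pairs. The partner was protein-coding in 11 of the 19.

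**Figure D2:**
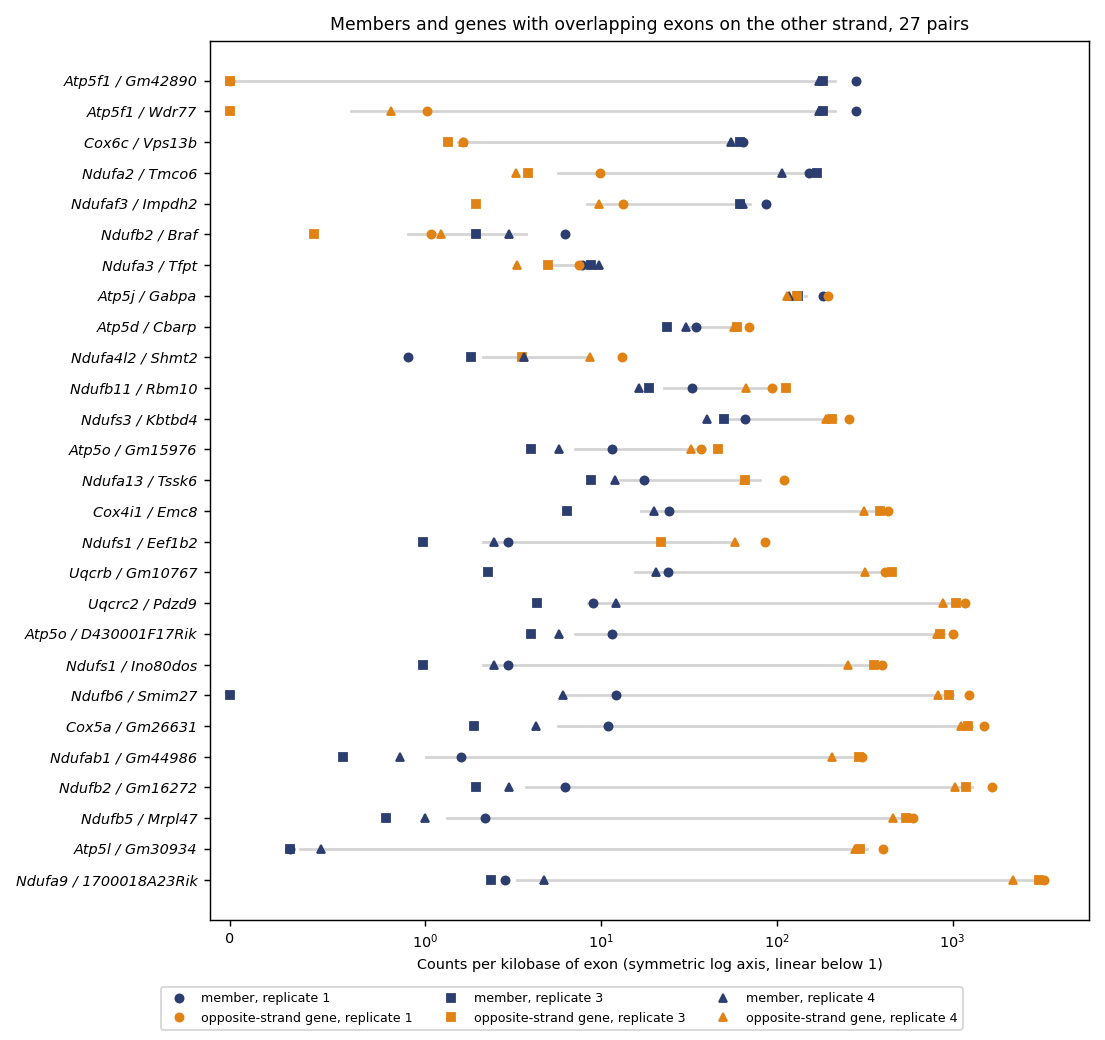
Counts per kilobase of exon of the members (blue) in 27 of the 28 tested pairs and of the genes with overlapping exons on the other strand (orange) in replicates 1, 3 and 4, with grey lines joining the means, on a symmetric log axis. Pairs are ordered by the fitted difference, from Ndufa9 with 1700018A23Rik at the bottom, where the partner is denser, to Atp5f1 with Wdr77 and Gm42890 at the top, where the member is.

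In complex I the differences were among the widest. Inside Ndufa9, an accessory subunit with 6, 5 and 10 counts, lies the antisense gene 1700018A23Rik with 1318, 1227 and 880. Per base Ndufa9 was lower by a log2 of -9.69 (SE 0.406, adjusted p = 1.63e-06, edgeR). Ndufb5, with 11, 4 and 5 counts, overlaps at its 5′ end Mrpl47, which encodes a mitochondrial ribosomal protein and had 2622, 2392 and 2019 (log2 -8.64, SE 0.360, adjusted p = 1.63e-06). The libraries of both genes lay far apart from those of their partners, with no overlap. Ndufb2 had 35, 11 and 17 counts between 2 partners: the antisense gene Gm16272 at its 5′ end had 647, 461 and 401, and Braf, a kinase gene, at its 3′ end had 15, 6 and 17. Per base it was lower than the first (log2 -8.50, SE 0.361) and higher than the second (1.98, SE 0.407, adjusted p = 0.00253). Ndufs1 was lower than both its partners, the noncoding Ino80dos (1147, 1032 and 729 counts) and Eef1b2, a translation elongation factor gene (217, 56 and 146).

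Ndufb6 had 8, 0 and 4 counts opposite Smim27, with 1423, 1104 and 952. Ndufab1 had 11, 4 and 6 around Gm44986, with 861, 834 and 585. Smaller differences in the same direction were found for Ndufs3 against Kbtbd4 (log2 -2.09, SE 0.211), Ndufb11 against Rbm10, an RNA-binding protein gene (-2.01, SE 0.297), Ndufa13 against Tssk6 (-2.64, SE 0.296) and Ndufa4l2 against Shmt2, a mitochondrial enzyme of one-carbon metabolism (-1.91, SE 0.624, adjusted p = 0.0220). The last was no longer called without replicate 1 (adjusted p = 0.153, edgeR). Ndufa3 and Tfpt share 4 bases at their 3′ ends and were not called apart (0.75, SE 0.483, adjusted p = 0.178).

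In complex III, Uqcrc2 had 23, 11 and 31 counts against 2553, 2269 and 1926 of Pdzd9 at its 3′ end (log2 -6.96, SE 0.401, adjusted p = 3.26e-06). Uqcrb, the ubiquinone-binding subunit, had 21, 2 and 18 against 935, 1032 and 718 of Gm10767 (-4.72, SE 0.576). In complex IV, Cox5a had 23, 4 and 9 counts against 3770, 3051 and 2811 of the noncoding Gm26631 at its 3′ end, the partner with the most counts (-7.92, SE 0.454, adjusted p = 3.19e-06). Cox4i1 had 38, 10 and 31 against 2697, 2445 and 1987 of Emc8, a subunit of the endoplasmic reticulum membrane protein complex (-4.55, SE 0.412). Replicate 3 had the lowest CPM in each of these 4 members. The CPM of each of their partners was lowest in replicate 1.

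In complex V, Atp5o, the stalk subunit that confers oligomycin sensitivity, had 26, 9 and 13 counts against 1878, 1573 and 1506 of the antisense gene D430001F17Rik (log2 -7.03, SE 0.343, adjusted p = 2.01e-06) and 16, 20 and 14 of Gm15976 inside it (-2.50, SE 0.457, adjusted p = 0.00136). Atp5l, the g subunit of the membrane part, had 2, 2 and 3 counts against 327, 244 and 226 of the antisense gene Gm30934 (-9.67, SE 0.379). Atp5d was lower than Cbarp by a log2 of -1.07 (SE 0.230, adjusted p = 0.00320).

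The 7 pairs with the denser member include Atp5f1, the member with the highest own-strand level, but not Atp5j. They also include the pair of Ndufb2, at 2.57 ± 1.15 TPM, with Braf. Wdr77, which encodes a partner of an arginine methyltransferase, overlaps the 5′ end of Atp5f1 by 337 bases and had 5, 0 and 4 counts, so that Atp5f1 had 345 times its counts per base (exact 95% counting interval 181 to 755; log2 8.40, SE 0.518, adjusted p = 4.24e-06, edgeR). Gm42890, at the same end, had no count, and Atp5f1 was at least 682-fold higher per base, taking 3 counts over the 3 libraries as the floor. Cox6c exceeded Vps13b (22, 18 and 22 counts) by a log2 of 5.27 (SE 0.285). Ndufa2 exceeded Tmco6 (18, 7 and 6) by 4.68 (SE 0.406), and Ndufaf3 exceeded Impdh2, an enzyme of guanine nucleotide synthesis (41, 6 and 30), by 3.24 (SE 0.463). In each of the 7 pairs the member was denser in every library.

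Atp5j and Gabpa run in opposite directions, and their exons overlap by 397 bases at the 5′ ends. Gabpa encodes the DNA-binding subunit of GABP, an ETS-family factor also called nuclear respiratory factor 2, which binds promoters of many respiratory chain genes. Gabpa had 1116, 744 and 647 counts beside 574, 413 and 368 of Atp5j. Per base these were nearly equal, with a log2 difference of -0.01 (SE 0.193, adjusted p = 0.951, edgeR). Without length correction Atp5j was lower by a log2 of -0.87 (adjusted p = 0.00317).

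Promoter windows from RefSeq (GRCm38.p6), 250 bases before to 50 after each start, were found for 77 of the 95 members, 82 windows in all. The ETS core CCGGAAG, on either strand, was in 18 of them (22.0%), against 8.86% of all 32851 windows and 11.6% of the 21263 of protein-coding genes. The NRF1 palindrome, was in 7 (8.54%, against 0.971% and 1.33%). AAGATGGCG, the YY1 site, was in 8 (9.76%, against 1.403% and 1.83%), and CCAAT, the NF-Y box, was in 36 (43.9%, against 37.4% and 38.2%). All were searched on both strands, and none of the 4 motifs contains another. A match is a description of the letters, not of binding. All 3 windows printed here hold an ETS core and lie in part within exons of the opposite-strand gene (200 bases for Atp5j, 170 for Ndufs3 and 59 for Atp5l), so the same bases belong to both members of a pair compared above. Capitals mark ETS cores on either strand, the YY1 site in Atp5j and the CCAAT box in Atp5l. Each window is on the minus strand, 5′ to 3′: Atp5j at chr16:84834927-84835226, Ndufs3 at chr2:90904672-90904971 and Atp5l at chr9:44920693-44920992.
Atp5j: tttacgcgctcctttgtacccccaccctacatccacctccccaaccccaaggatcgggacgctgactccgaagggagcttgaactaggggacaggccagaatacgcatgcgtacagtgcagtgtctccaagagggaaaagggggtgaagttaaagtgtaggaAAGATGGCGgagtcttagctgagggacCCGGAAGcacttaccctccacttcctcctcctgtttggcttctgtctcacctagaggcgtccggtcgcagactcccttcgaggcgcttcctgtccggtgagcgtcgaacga
Ndufs3: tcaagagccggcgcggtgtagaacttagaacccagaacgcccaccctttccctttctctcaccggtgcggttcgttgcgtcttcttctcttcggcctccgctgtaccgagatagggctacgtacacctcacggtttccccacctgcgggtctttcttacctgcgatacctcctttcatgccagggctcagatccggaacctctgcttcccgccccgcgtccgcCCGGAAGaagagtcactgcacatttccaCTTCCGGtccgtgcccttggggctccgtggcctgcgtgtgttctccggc
Atp5l: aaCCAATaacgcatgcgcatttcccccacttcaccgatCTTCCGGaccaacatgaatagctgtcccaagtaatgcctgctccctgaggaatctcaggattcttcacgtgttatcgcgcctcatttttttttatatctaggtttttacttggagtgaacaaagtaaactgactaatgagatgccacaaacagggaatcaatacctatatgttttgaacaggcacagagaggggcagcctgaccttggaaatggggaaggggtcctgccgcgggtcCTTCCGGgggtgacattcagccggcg

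These windows thus stand for a pair with near-equal counts per base (Atp5j and Gabpa), a pair with a moderate difference (Ndufs3 and Kbtbd4) and a pair with a wide one (Atp5l and Gm30934). Atp5l and Ndufs3 each have 2 ETS cores in the window printed, and their own-strand levels were 0.268 ± 0.110 and 36.6 ± 2.61 TPM. A link between motifs and levels was not tested. Atp5j has another RefSeq window, at chr16:84835576-84835875, with none of the motifs searched.

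Replicates were then compared with each other. Each of replicates 1, 3 and 4 was set against the mean of the other two with edgeR (TMM scaling, mean count of 10 or more, 1 residual degree of freedom), which compares libraries, not conditions, and assumes that the lone library varies like the rest. Of the 49 members tested, 13 (26.5%) were lower in replicate 3 and 0 higher, where 12.4% of all 6922 genes were lower and 2.79% higher. When scaled on genes without opposite-strand exons, which moves the median of all genes in replicate 3 from -0.11 to 0.72 log2, 2 members were lower and 7 higher. DESeq2's size factors left 5 lower, no filter on low counts left 8, and DESeq2 called 0 with 5 at an unadjusted p under 0.05. DESeq2 gave an adjusted p for 2 of the 13. In replicate 1, 0 members were called in either direction (0.0289% of genes higher and 0% lower), with 2 higher and 0 lower at an unadjusted p under 0.05. In replicate 4 also 0 were called (0.0144% and 0.0289%), with 0 at an unadjusted p under 0.05. DESeq2 called 0 in both.

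The members lower in replicate 3 came from every complex. In complex V they were Atp5b, with 218, 61 and 137 counts (log2 -1.30, SE 0.290, adjusted p = 3.85e-04, edgeR), Atp5a1, with 124, 46 and 109 (-1.13, SE 0.328, adjusted p = 0.00886), Atp5h, a stalk subunit, and Atp5c1. Cycs had 37, 5 and 23 counts (-2.33, SE 0.659, adjusted p = 0.00749). In complex IV Cox6b1, a subunit facing the intermembrane space, had 32, 3 and 25 (-2.98, SE 0.738, adjusted p = 0.00180), and Cox6a1 and Cox4i1 were also called. In complex III these were Uqcrb, with 21, 2 and 18 counts (-3.00, SE 0.876), and Uqcrfs1, the Rieske iron-sulfur protein. In complex II Sdhd had 16, 1 and 14 (-3.55, SE 1.06, adjusted p = 0.0119) and Sdha 50, 11 and 26. In complex I only Ndufa10 of 15 tested members was called, with 42, 6 and 17 counts. For all of these members replicate 3 lay below both other libraries in CPM, which follows largely from how they were chosen. Sdhd and Cox6b1 were the members also called lower when scaling used genes without opposite-strand exons. The 7 called higher on that scale were Ndufa2, Ndufv3, Cox6c, Ndufs3, Atp5j, Ndufaf3 and Atp5f1, at 0.76 to 1.45 log2, and all but Ndufv3 have opposite-strand exons.

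The calls were also counted for members with and without opposite-strand exons. Of the 32 tested members without them 11 were lower in replicate 3, against 22.0% of all tested genes without them. Of the 17 members with them 2 were lower, against 4.82% of all tested genes with them. Summed, members without them had 622, 244 and 566 CPM in replicates 1, 3 and 4, so that replicate 3 was at 0.410 of the mean of the others. Members with them had 1151, 970.0 and 1070.0 CPM, a ratio of 0.874. In the other nuclear protein-coding genes the same ratios were 0.592 and 1.02. The difference of the classes was not tested. Replicate 3 was the lowest library in 56 of 65 counted members without opposite-strand exons (86.2%), against 59.1% of other nuclear protein-coding genes. With such exons it was lowest in 16 of 25 members (64.0%), against 47.4%. A tie was not counted as lowest, and genes with few counts tie more often. The other genes had lower levels than the members, so these shares are not on the same footing. Over all genes, 94.2% of the counts of replicate 3 were in genes with opposite-strand exons, against 90.7% and 91.3% in replicates 1 and 4. The summed Th2 markers were also lowest in replicate 3, as given above, although Il4 was highest there. Their part in the members' values was not tested. In bulk libraries, fewer cells of a type, less RNA per cell and technical differences between libraries cannot be told apart.

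**Figure D3:**
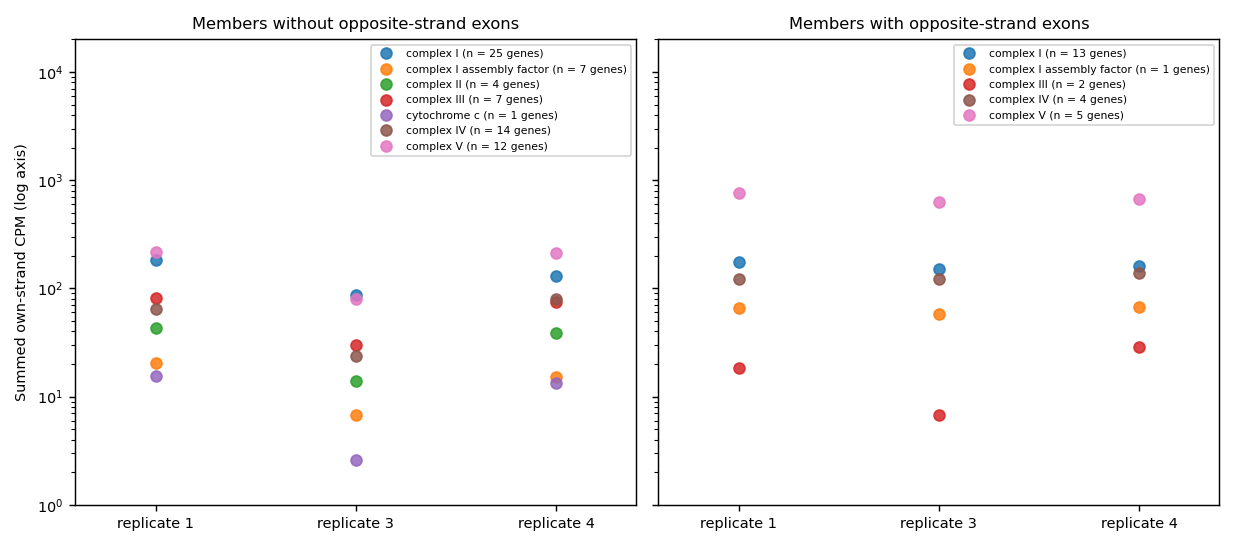
Summed own-strand CPM (log axis) of the members of each complex in replicates 1, 3 and 4, for members without (left) and with (right) opposite-strand exons. Every group on the left is lowest in replicate 3, as at 244 CPM over all 70 of these members. On the right complexes I, IV and V stay within a narrow range. Complex III on the right is also lowest in replicate 3, at 6.74 CPM against 18.4 in replicate 1 and 28.6 in replicate 4.

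Subunits with a paralog for particular tissues were compared within the libraries, per exonic base and pooled over replicates 1, 3 and 4. The form named first is the broadly expressed one, and the intervals are exact 95% counting intervals. For subunit 6a the liver form Cox6a1 had 19, 2 and 13 counts and the heart and muscle form Cox6a2 0, 0 and 1, a ratio of 32.9 (5.53 to 1339). The ratio was 14.5 without replicate 1 and 6.78 without replicate 4. For subunit 6b, Cox6b1 had 60 counts and the testis form Cox6b2 4, a ratio of 23.5 (8.71 to 89.0). Of these 4 counts 3 were in replicate 3. The ratio was 89.2 without replicate 3, 14.6 without replicate 1 and 13.7 without replicate 4. Cox4i1 was 3.65 times Cox4i2 (1.93 to 7.61), the form of lung and of low oxygen, with 38, 10 and 31 against 4, 3 and 4 counts. Ndufa4 was 3.97 times Ndufa4l2, a gene induced by low oxygen (1.74 to 10.6), with 2.11 without replicate 1 and 6.61 without replicate 4.

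Cox7b2, Cox8b and Cox8c, forms of testis, muscle and testis, had no count. Cox7b was at least 10.3-fold higher than Cox7b2, and Cox8a at least 7.27-fold higher than Cox8b and at least 9.61-fold higher than Cox8c, with the floor of 3 counts over the 3 libraries. Without replicate 4 the bound of Cox7b was 4.91, and those of Cox8a were 4.40 and 5.82 without replicate 1 or without replicate 4. Cycs was at least 4.17-fold higher than Cyct, the testis cytochrome c, and at least 1.80-fold and 2.69-fold without replicate 1 and without replicate 4. For subunit 7a the forms were not apart: Cox7a2 had 16, 4 and 13 counts and the muscle form Cox7a1 8, 1 and 7, a ratio of 1.17 (0.625 to 2.27). Neither gene has opposite-strand exons. Of the muscle markers, Acta1 had 0, 0 and 2 counts, Myh7 none, and Ckm, which has opposite-strand exons, 11, 9 and 11. For the rotor ring, Atp5g2 was 0.102 times Atp5g3 (0.0268 to 0.278) and 1.17 times Atp5g1 (0.269 to 4.07). The ratio to Atp5g1 was 0.733 without replicate 1 and 0.4 with no length correction, so its direction turned. The 5 members with no count in the 3 libraries were Cox7b2, Cox8b, Cox8c, Ndufb4 and Atp5s, or 5.26% of members, against 41.5% of the other nuclear protein-coding genes.

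**Figure D4:**
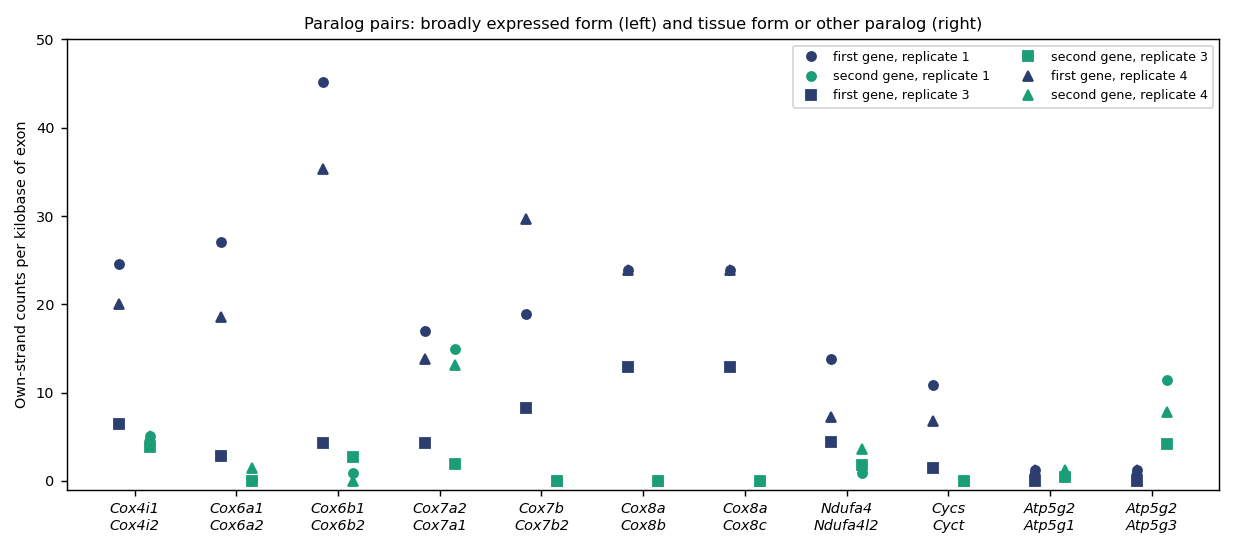
Own-strand counts per kilobase of exon for the broadly expressed form (blue, left) and its paralog (green, right) in replicates 1, 3 and 4. Blue exceeds green for Cox6a1, Cox6b1, Cox7b and Cox8a in each library, whereas Cox7a2 and Cox7a1 lie together and Atp5g3 exceeds Atp5g2.

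Genes outside the symbol rule that serve the same pathway were counted in the same tests. Of 32 assembly factors of complexes II to V, 10 of 20 tested lay above 1 TPM, against 62.9% of all genes tested, and 3 had no count. None lay below, which has little weight because the filter on counts was the same. The highest were Cox20, a chaperone of a complex IV subunit, at 422 ± 45.7 TPM, Sco2, a copper chaperone, at 234 ± 13.9 TPM and Surf1 at 127 ± 13.4 TPM. Their exons overlap Hnrnpu, Ncaph2 and Surf2. In 14 tested pairs of this list the factor was lower in 7 and higher in 7. Over all comparisons of a nuclear protein-coding gene with its partner, the gene was lower in 61.6% and higher in 29.2%. Of 6 further complex I assembly genes 1 of 3 tested lay above, Ecsit at 17.8 ± 5.09 TPM, while Foxred1 and Tmem126b were at 1.05 ± 0.470 and 0.812 ± 0.410 TPM.

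Of the 13 enzymes of the tricarboxylic acid cycle, which supplies NADH and succinate, 11 lay above 1 TPM, against 62.9% of all genes tested. They include Mdh2 at 7.63 ± 2.72 and Idh3g at 5.32 ± 2.91 TPM. Of 11 tested between libraries 3 were lower in replicate 3, against 12.4% of all genes tested. With size factors of DESeq2 1 of the 11 was lower, and with scaling factors from genes without opposite-strand exons 0. The summed level of the list was 171, 67.4 and 188 CPM in replicates 1, 3 and 4. Of 13 regulators of mitochondrial genes 7 of 10 tested lay above 1 TPM, near the 62.9% of all genes. They were led by Gabpa at 103 ± 12.6, Yy1, a zinc finger factor, at 37.1 ± 9.05 and Pprc1, a coactivator, at 20.1 ± 3.89 TPM. Exons of Gabpa and Pprc1 overlap Atp5j and Ldb1 on the other strand, and Yy1 has no such exons. Tfam, which packages mitochondrial DNA, was at 1.00 ± 0.302 TPM, Nrf1 at 0.616 ± 0.355 TPM, and the coactivator gene Ppargc1a had no count.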

How the data were processed

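The deposited values were raw counts of fragments per gene, which the authors made by running featureCounts (version 1.4.6-p4, GENCODE vM13 exons) on reads placed on mm10 by STAR, per the file headers. Both mates had to map and strand setting 1 was used, per the file headers. The sources used here name no STAR version. The fixed tests assumed counts, which the files held. GENCODE vM21 supplied symbols and biotypes through the identifiers, with 224 of 50600 unmatched.

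CPM, TPM (from counts and exonic length), overlaps (bedtools 2.31.1) and ratios were computed with scipy 1.17.1, numpy 2.4.6 and pandas 2.3.3 under Python 3.11.15. Levels, pairs and single libraries were tested with edgeR 4.0.16 in R 4.3.3, with offsets for total and length in the first and second and TMM in the third, Benjamini-Hochberg adjusted over all genes or pairs. limma 3.58.1 and DESeq2 1.42.0 were alternatives, with other filters, scalings and libraries. SE was taken from the log2 value and F. The tests were tested on simulated counts. Depth is given in the report.

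Members and lists were chosen with earlier results of these data known. Named genes were the 3 members of each complex with the highest CPM, paired members by partner counts (up to 14), denser members, paralog pairs, members called in a library, members without a count and 3 genes of each list by TPM. Other genes (among them Eef1b2, Gm15976, Ndufv1, Ndufv2, Ndufs7, Ndufs8, Ndufc1, Ndufa11, Ndufa3, Ndufa13, Sdhc, Atp5d, Atp5l, Tfam, Nrf1 and Ppargc1a) were named after their values were seen. A few genes covered by the rule were left out of text and plots.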

Additional observations from a re-analysis of the deposited data

Results flagged for a closer look

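Complex IV took 0.0598% of the counts of replicate 2 (3 of 5016 counts), against 0.0187%, 0.0146% and 0.0218% in replicates 1, 3 and 4, so replicate 2 lay far from the others by Dixon's test. The Wilson 95% interval of this share, 0.0203 to 0.176%, includes the share of replicate 4. Dixon's test would flag about 1 in 20 such groups by chance if all libraries had equal spread. That rate does not hold here, because replicate 2 is far shallower than the others.

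Replicate 2 entered none of the main tests, only the alternative fits over all 4 libraries. It held 10 member counts, of which 4 were of Atp5f1. The genes opposite members had 58 counts there, led by Gm26631 with 11 and Emc8 and D430001F17Rik with 6 each.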

How the results depend on the processing

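No paired analysis was possible because there is a single group, so replicate numbers pair no samples. The counts of members lower (13 to 19) and higher (5 to 7) than their opposite-strand partners stayed within 1.5 times of 19 and 7 under the alternatives run. Leaving out each replicate in turn gave 44 to 68 members above 1 TPM, where fewer members passed the filter without replicate 1. Without a filter on low counts 1 member lay below 1 TPM. Against a denominator of genes without opposite-strand exons the member share was 1.97% in place of 0.154%. Of the 13 members lower in replicate 3, DESeq2's size factors left 5, no filter 8, DESeq2 0, and TMM from genes without opposite-strand exons 2, with 7 members then higher. DESeq2 gave no adjusted p for 11 of them. The cause of these changes was not tested. Leaving out a replicate in this comparison was not run, since 2 libraries leave no residual degree of freedom. Leaving out each replicate in turn gave -0.043 to 0.030 for the log2 difference of Atp5j and Gabpa, the sign turning without replicate 1 (adjusted p = 0.935, edgeR). Without length correction Ndufb2 against Braf (adjusted p = 0.143) and Atp5o against Gm15976 (0.807) were no longer called, and Atp5j against Gabpa was. Under RefSeq's symbols the member share was 0.155%. Counts under 10, found in 18 members, limit what could be seen.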
